A study of Mus musculus with 6 samples.

Results

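The collagen genes of the mouse were followed in C2C12 cells, an immortalized line of myoblasts that fuse into myotubes after growth serum is withdrawn. A gene was taken as a member when its symbol was Col, a number, the letter a and a further number, such as Col1a1. This rule found 44 genes among the 17558 genes of the deposited table, and 31 of the 44 passed the filter on low counts. All cells carried the genotype label WT and were harvested 48 h after the change to a medium with horse serum and an insulin, transferrin and selenium supplement. They differed in the short hairpin RNA that they expressed stably. The control, shScr, carried a scrambled hairpin, shPkm1 a hairpin against the Pkm1 isoform of pyruvate kinase, and shPkm2 a hairpin against the Pkm2 isoform, with 2 libraries in each group. The labels do not say how many clones or hairpins stand behind a group, nor whether the libraries of a group came from separate cultures, so the p-values measure only the spread between these libraries.

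Collagens are secreted proteins built from chains that wind into a triple helix. Fibrillar collagens pack into the fibrils that carry load, collagen IV forms the sheet of basement membranes around each muscle fibre, and collagen VI forms beaded filaments that join that sheet to the surrounding matrix. Fibril-associated collagens sit on the surface of fibrils, multiplexins bind to basement membranes, short-chain collagens form open networks, and transmembrane collagens stay anchored in cell membranes. In skeletal muscle most collagen is laid down by fibroblasts, while myoblasts and myotubes also make it. Chains of one collagen type are often needed in a fixed ratio, so the level of each partner chain is of interest.

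Libraries held 18216896 to 19796036 estimated counts, and the log2 CPM (counts relative to the library total) of the 2 libraries of a group correlated at 0.988 to 0.994 across genes, which are not independent replicates. Pkm itself, summed over its isoforms, had 1644 and 2136 TPM (a level scaled to transcript length and library size) in shScr, 1561 and 1613 in shPkm1, and 2978 and 2932 in the shPkm2-labelled libraries. Against shScr it fell by 0.63 on the log2 scale in shPkm1 (edgeR adjusted p 0.00107), and 0.20 in the shPkm2-labelled libraries was not called (adjusted p 0.198) but was called higher with library totals alone (0.52, adjusted p 0.00243), with both limma fits on log2 FPKM (0.53 in each) and without shScr replicate 2 (0.31, adjusted p 0.0282). The sum of both isoforms does not check a hairpin against 1 of them, and values of the single isoforms are not given here. The sum was not lower in the shPkm2-labelled libraries than in shScr. No knockdown of an isoform is therefore shown, and the hairpin groups are named here by their labels. Of 10 muscle differentiation genes, 10 fell in each hairpin group against shScr, where 31.4% (shPkm1) and 34.2% (shPkm2) of all genes tested fell, and their summed level was 28151 and 22104 TPM in shScr, 11550 and 12451 in shPkm1, and 1094 and 1025 in the shPkm2-labelled libraries. Myog, the myogenin gene, fell by 0.94 and 5.35. Of 10 cell cycle genes, 8 rose in shPkm1 and 10 in the shPkm2-labelled libraries, where 31.8% and 33.9% of all genes rose, with Mki67, a marker of dividing cells, up by 1.46 and 2.90. The part of these shifts in the collagen results was not tested. Scaling to library totals alone, in place of the trimmed mean of M values (TMM), moved the median log2 difference of all genes to 0.19 in shPkm1 against shScr, to 0.33 in shPkm2 against shScr and to 0.14 in shPkm2 against shPkm1. The share of calls that were higher then went from 50.3% to 65.8%, from 49.8% to 69.3% and from 48.4% to 61.3%.

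Collagen transcripts as a whole were far more abundant in shPkm1 than in the other groups. Together the 44 genes made up 2349 and 2778 TPM in shScr, 12601 and 12527 TPM in shPkm1, and 2395 and 2092 TPM in the shPkm2-labelled libraries. The shPkm1 libraries stood apart, and the range of the shPkm2-labelled libraries overlapped that of shScr. As a share of all estimated counts this was 0.860% and 0.978%, 3.84% and 3.90%, and 0.825% and 0.747%. Most of the sum came from few genes: the 5 most abundant members held 71.6% to 84.3% of it in each library. In shScr and shPkm1 these were Col3a1, Col1a1, Col1a2, Col6a1 and Col6a2, whereas in the shPkm2-labelled libraries they were Col3a1, Col1a2, Col6a1, Col5a2 and Col5a1. By TPM Col1a1 was number 354 and 368 among all genes in shScr, 54 and 59 in shPkm1, and 2823 and 3131 in the shPkm2-labelled libraries. In these bulk samples fewer cells of a type and less RNA per cell cannot be told apart.

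**Figure D1:**
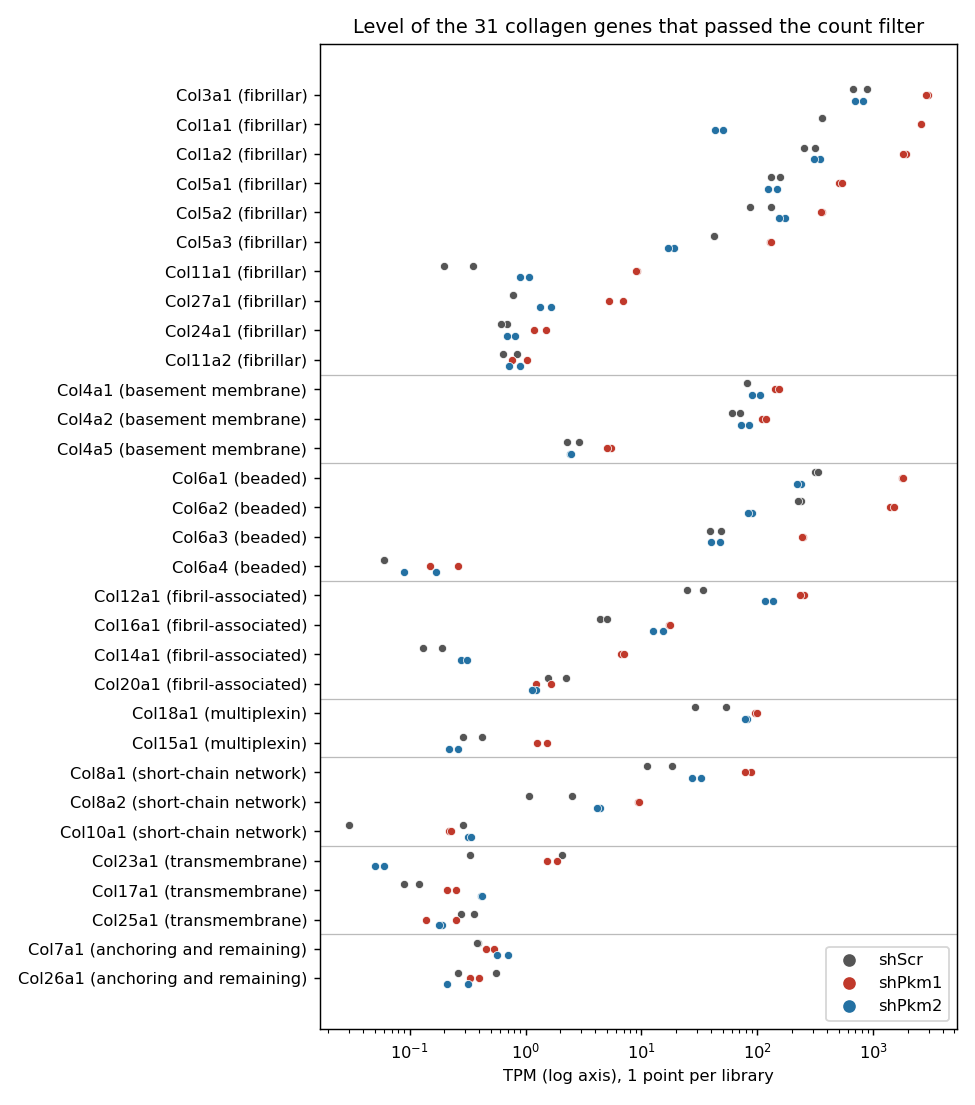
Level of the 31 collagen genes that passed the count filter, as TPM on a log axis with 1 point per library, grouped by class and coloured by hairpin group. The red shPkm1 points lie to the right of the others for most fibrillar and beaded genes, and Col1a1 spans the widest range of the abundant genes, from 43.2 to 2585 TPM.

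Most of the collagens tested were higher in shPkm1 than in shScr. Of the 31 tested members 23 rose, 1 fell and 7 did not pass the test (edgeR quasi-likelihood test, adjusted p under 0.05 over all 12643 genes tested), where 63.1% of all genes tested were called, 31.8% higher and 31.4% lower. A rise of at least 2-fold was called for 18 members, against 12.6% of all genes tested, and no fall of that size, against 9.41%. The median log2 difference of the 31 members was 1.46, beside -0.00 over all genes. A member could pass the filter through the group where it was high, so these counts describe the members tested and not all 44. With each library left out in turn, 20 to 23 members were called higher.

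The libraries labelled shPkm2 gave a mixed picture against shScr. Of the 31 members 7 rose, 12 fell and 12 did not pass the test, where 68.0% of all genes tested were called, 33.9% higher and 34.2% lower. Falls of at least 2-fold were called for 7 members (13.7% of all genes tested) and rises of that size for 4 members (14.1%). The members' median was -0.25, beside 0.01 over all genes. With library totals alone, 10 members rose, 6 fell and the median was 0.07. Over all genes 48.2% then rose, 21.4% fell and the median was 0.33. The balance of rises and falls thus moved with the scaling, for the members and for all genes.

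Set directly against shPkm1, the shPkm2-labelled libraries had lower levels of most collagens. By edgeR 22 of 31 members fell (53.0% of all genes tested were called, 27.3% lower) and 18 fell by at least 2-fold (11.5%). None was called higher, where 25.7% of all genes tested were, 7.07% by at least 2-fold. At an unadjusted p under 0.05 1 member, Col17a1, was higher, and DESeq2 called 0 members higher. The median was -1.21, beside 0.00 over all genes. The comparisons share libraries and are therefore given side by side.

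**Figure D2:**
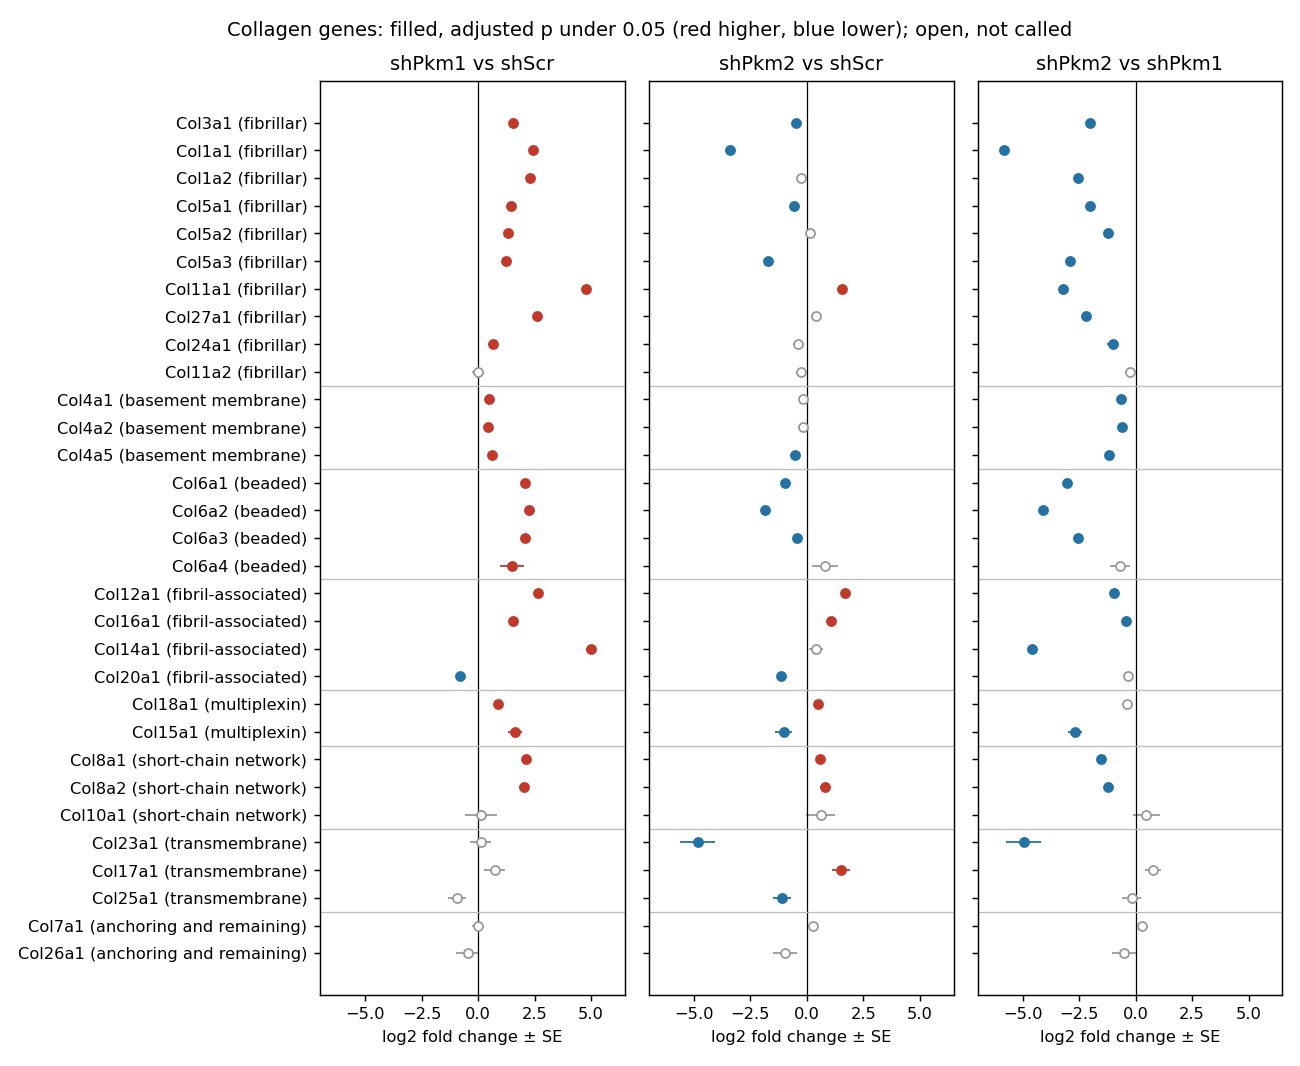
Log2 fold change ± SE of each tested collagen gene in the 3 comparisons, ordered by class. Filled points passed an adjusted p of 0.05 (red higher, blue lower). In the left panel 23 points are red and 1 is blue, in the middle panel 7 are red and 12 blue, and in the right panel 22 are blue and none is red.

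Fibrillar collagens held the largest part of the sum, from 1343 to 1897 TPM in the shScr and shPkm2-labelled libraries and 8479 and 8253 TPM in shPkm1. Of 11 fibrillar genes 10 were tested. In shPkm1 9 rose, with a class median of 1.49 (31.8% of all genes tested rose). In the shPkm2-labelled libraries 1 rose and 4 fell against shScr (median -0.31), and the falls are near the 34.2% over all genes. There 3 rose and 2 fell with library totals alone, where 48.2% of all genes rose and 21.4% fell. Against shPkm1 9 fell (median -2.12; 27.3% of all genes). The remaining gene, Col2a1 of cartilage collagen II, had at most 4 counts in any library.

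Collagen I, the main collagen of tendon and bone, is a trimer of chains from Col1a1 and Col1a2. Col1a1 (chr11:94936224-94953042, mm10) stood at 359 and 362 TPM in shScr, 2585 and 2552 TPM in shPkm1, and 50.5 and 43.2 TPM in the shPkm2-labelled libraries. The groups did not overlap, and the lowest shPkm1 library was above every other library. It rose 5.42-fold in shPkm1 (log2 2.44, SE 0.140, adjusted p 1.47e-08 by edgeR) and fell by 3.41 on the log2 scale in the shPkm2-labelled libraries (SE 0.147, adjusted p 3.61e-10). Col1a2 (chr6:4505618-4541543) read 254 and 312 TPM in shScr, 1901 and 1803 TPM in shPkm1, and 344 and 308 TPM in the shPkm2-labelled libraries. Here shPkm1 was high again, but shScr and the shPkm2-labelled libraries overlapped. Its rise in shPkm1 was 5.00-fold (log2 2.32, SE 0.130, edgeR adjusted p 1.20e-08). Against shScr the shPkm2-labelled libraries differed by -0.25 (SE 0.124, edgeR adjusted p 0.0922), by -0.26 with DESeq2 (adjusted p 0.0142), by -0.31 without shScr replicate 1 (adjusted p 0.0223) and by 0.07 with library totals alone.

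The TPM ratio of Col1a1 to Col1a2 was 1.42 and 1.16 in shScr, 1.36 and 1.41 in shPkm1, and 0.147 and 0.140 in the shPkm2-labelled libraries. The first 4 values lay close together and the last pair was far below them. Both chains thus rose by a similar factor in shPkm1, while in the shPkm2-labelled libraries Col1a1 alone was at a fraction of its partner. In those libraries Col3a1 stood at 16.1 times the TPM of Col1a1 in each, against 1.85 and 2.45 in shScr and 1.15 and 1.12 in shPkm1. A ratio within a library does not depend on the scaling between libraries.

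**Figure D3:**
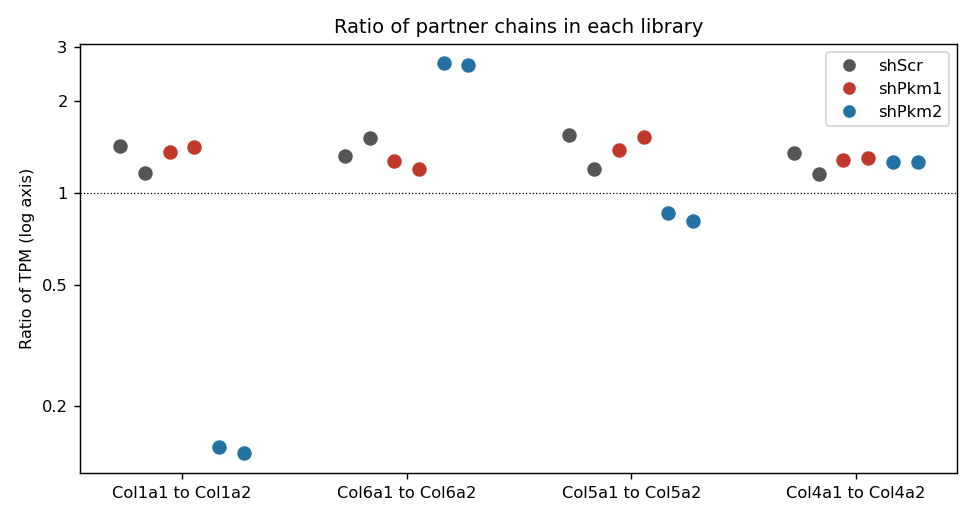
TPM ratio of partner chains in each library on a log axis, with 1 point per library and a dotted line at a ratio of 1. Col1a1 to Col1a2 drops to 0.147 and 0.140 and Col6a1 to Col6a2 climbs to 2.65 and 2.62 in the shPkm2-labelled libraries, while Col4a1 to Col4a2 stays between 1.15 and 1.35 in all 6 libraries.

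Collagen III, made of Col3a1 chains alone, accompanies collagen I in extensible and healing tissue, and Col3a1 was the most abundant collagen transcript in all 6 libraries. Col3a1 (chr1:45311538-45349706) had 663 and 887 TPM in shScr, 2984 and 2854 TPM in shPkm1, and 815 and 696 TPM in the shPkm2-labelled libraries. It was high in shPkm1, and the other groups overlapped. The rise in shPkm1 was 2.89-fold (log2 1.53, SE 0.145, edgeR adjusted p 1.31e-06). In the shPkm2-labelled libraries it fell by 0.49 on the log2 scale (SE 0.143, edgeR adjusted p 0.00834), which did not pass without shPkm2 replicate 2 (-0.41, adjusted p 0.102) or with library totals alone (-0.16, adjusted p 0.295).

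The promoters of Col1a2 and Col3a1 are shown because both genes rose in shPkm1 while their differences from shScr in the shPkm2-labelled libraries, -0.25 (not called) and -0.49 (called), were smaller than that of Col1a1. No window was found for Col1a1, so its promoter could not be set beside them. The lines give the 250 bases before the start in RefSeq, build GRCm38.p6, 5′ to 3′ on the strand of the gene, which is the plus strand for both: chr6:4505368-4505617 and chr1:45311288-45311537. Capitals mark matches, on either strand, to 3 motifs: CCAAT as in the CCAAT box, TATAAA as in the TATA box, and GGGCGG as in the GC box.
Col1a2: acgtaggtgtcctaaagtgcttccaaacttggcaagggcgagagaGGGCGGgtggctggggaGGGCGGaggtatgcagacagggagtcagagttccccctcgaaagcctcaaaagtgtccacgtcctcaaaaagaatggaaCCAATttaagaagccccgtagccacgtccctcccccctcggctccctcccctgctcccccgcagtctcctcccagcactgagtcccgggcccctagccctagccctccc
Col3a1: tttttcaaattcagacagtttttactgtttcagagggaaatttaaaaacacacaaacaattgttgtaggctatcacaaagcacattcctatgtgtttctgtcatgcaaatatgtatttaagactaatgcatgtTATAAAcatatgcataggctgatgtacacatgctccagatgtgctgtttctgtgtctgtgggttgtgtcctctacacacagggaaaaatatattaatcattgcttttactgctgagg
The Col1a2 window held CCAAT starting 109 bases before the start and GGGCGG at 205 and 188 bases. The Col3a1 window held TATAAA at 117 bases and neither of the other motifs.

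Collagen V starts and limits the width of collagen I fibrils. Col5a1 (chr2:27886381-28039510), its major chain, had 132 and 158 TPM in shScr, 500 and 540 TPM in shPkm1, and 148 and 123 TPM in the shPkm2-labelled libraries. Only shPkm1 stood apart. It rose 2.75-fold in shPkm1 (log2 1.46, SE 0.128, edgeR adjusted p 6.29e-07) and fell by 0.57 in the shPkm2-labelled libraries (SE 0.126, adjusted p 0.00133), a call that was lost with library totals alone (-0.24, adjusted p 0.0932). Its partner Col5a2 rose 2.54-fold in shPkm1 and differed by 0.13 in the shPkm2-labelled libraries (edgeR adjusted p 0.410). With library totals alone the latter was 0.45 (adjusted p 0.0159), without shScr replicate 2 it was 0.37 (adjusted p 0.00446), and without shScr replicate 1 it was -0.07. The ratio of Col5a1 to Col5a2 was 1.20 to 1.54 in shScr and shPkm1 and 0.859 and 0.806 in the shPkm2-labelled libraries. Col5a3, a chain of lower abundance, rose 2.33-fold in shPkm1 and was 3.24-fold lower in the shPkm2-labelled libraries (log2 -1.70, SE 0.107, edgeR adjusted p 1.36e-08).

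Among fibrillar genes of low abundance Col11a1 and Col27a1 had the largest rises in shPkm1. Col11a1, a chain of the cartilage fibril collagen XI, had 0.200 and 0.350 TPM in shScr, 9.07 and 8.93 TPM in shPkm1, and 1.08 and 0.890 TPM in the shPkm2-labelled libraries. The 3 groups did not overlap, with shPkm1 highest and shScr lowest. It was 27.1-fold higher in shPkm1 (log2 4.76, SE 0.172, edgeR adjusted p 1.58e-10) and 2.94-fold higher in the shPkm2-labelled libraries (log2 1.55, SE 0.214, edgeR adjusted p 2.54e-05), the only fibrillar rise called there. Col27a1 of collagen XXVII rose 6.05-fold in shPkm1 and differed by 0.39 in the shPkm2-labelled libraries (edgeR adjusted p 0.0856), which passed with library totals alone (0.71, adjusted p 0.00490) and without shScr replicate 1 (0.51, adjusted p 0.0384). Col24a1 rose 1.58-fold in shPkm1 (edgeR adjusted p 0.0224), a call lost without shScr replicate 2 (0.46, adjusted p 0.109) and without shPkm1 replicate 1 (0.53, adjusted p 0.152). Col11a2 did not pass any test, with log2 differences of -0.02 and -0.25 against shScr.

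Of 6 basement membrane genes 3 were tested, and these rose by 0.42 to 0.62 on the log2 scale in shPkm1 (31.8% of all genes tested rose). Of the 3, 1 fell in the shPkm2-labelled libraries against shScr and 3 fell against shPkm1 (median -0.65). The 1 of 3, lost with library totals alone, is at the 34.2% of all genes called lower against shScr, and 27.3% were lower against shPkm1. Col4a1 and Col4a2 encode the chains of the common collagen IV trimer and lie head to head on chromosome 8, where their RefSeq gene bounds overlap by 85 bases. Col4a1 read 80.6 and 80.9 TPM in shScr, 141 and 153 TPM in shPkm1, and 106 and 90.5 TPM in the shPkm2-labelled libraries. Col4a2 read 59.9 and 70.2 TPM, 110 and 118 TPM, and 84.1 and 72.1 TPM in the same order. In TPM the order of the groups was shScr, shPkm2, shPkm1 for each gene, without overlap. On TMM-scaled counts Col4a1 rose 1.39-fold in shPkm1 (log2 0.47, SE 0.116, edgeR adjusted p 0.00307) and Col4a2 1.34-fold (log2 0.42, SE 0.107, edgeR adjusted p 0.00388). Both calls were narrowly lost without shPkm1 replicate 2 (0.37, adjusted p 0.0522, and 0.34, adjusted p 0.0585). The differences of -0.18 and -0.19 in the shPkm2-labelled libraries did not pass (edgeR adjusted p 0.194 and 0.132), and their sign depended on the scaling, with 0.15 and 0.13 under library totals. Col4a1 was called lower there only without shScr replicate 2 (-0.25, adjusted p 0.0439). The ratio of the partners ran from 1.15 to 1.35 over the 6 libraries, with no group apart.

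Col4a5, a chain of other collagen IV trimers, had 2.29 and 2.92 TPM in shScr, 5.41 and 5.04 TPM in shPkm1, and 2.43 and 2.48 TPM in the shPkm2-labelled libraries. It was high in shPkm1 only. The rise in shPkm1 was 1.54-fold (log2 0.62, SE 0.129, edgeR adjusted p 0.000934), and its fall of 0.54 in the shPkm2-labelled libraries did not pass with library totals alone (-0.21, adjusted p 0.212). Col4a6, its neighbour at a distance of 1274 bases on chromosome X, had 8 and 9 counts in shPkm1 and 0 in the other 4 libraries. Set against a floor of 3 counts per library it was at least 2.45-fold higher in shPkm1 than in shScr, without a test since it did not pass the filter. Col4a3 and Col4a4, the kidney and lung chains, had at most 1 count in any library.

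Of 6 beaded collagen genes 4 were tested. All 4 rose in shPkm1, by 1.49 to 2.26 on the log2 scale (median 2.08), while in the shPkm2-labelled libraries 3 fell against shScr (median -0.70) and 3 against shPkm1 (median -2.79). Over all genes 31.8% rose in shPkm1, and 34.2% and 27.3% fell in the latter comparisons. Against shScr 2 fell with library totals alone, where 21.4% of all genes fell. Col6a1, Col6a2 and Col6a3 encode the chains of the classical collagen VI trimer of the muscle matrix. Col6a1 (chr10:76708792-76726044) had 315 and 335 TPM in shScr, 1764 and 1800 TPM in shPkm1, and 237 and 218 TPM in the shPkm2-labelled libraries. Col6a2 (chr10:76595756-76623630) had 238 and 223 TPM, 1385 and 1505 TPM, and 89.4 and 83.0 TPM in the same order. For both genes the 3 groups did not overlap, with shPkm1 highest and the shPkm2-labelled libraries lowest. Col6a3 had 39.1 and 48.5 TPM in shScr, 245 and 243 TPM in shPkm1, and 47.6 and 40.1 TPM in the shPkm2-labelled libraries, which overlapped shScr.

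The 3 chains rose by near factors in shPkm1: 4.18-fold for Col6a1 (log2 2.07, SE 0.124), 4.78-fold for Col6a2 (log2 2.26, SE 0.136) and 4.28-fold for Col6a3 (log2 2.10, SE 0.118), each with an edgeR adjusted p of at most 2.22e-08. In the shPkm2-labelled libraries they fell by 0.97, 1.85 and 0.44 on the log2 scale (edgeR adjusted p 1.02e-05, 5.67e-08 and 0.00409). The fall of Col6a3 was lost without shPkm2 replicate 2 (-0.35, adjusted p 0.0780) and with library totals alone (-0.11, adjusted p 0.403). The ratio of Col6a1 to Col6a2 was 1.20 to 1.51 in shScr and shPkm1 and 2.65 and 2.62 in the shPkm2-labelled libraries. Col6a4, of the alternative long chains, had 5 and 5 counts in shScr and 11 and 22 in shPkm1. It was called higher (edgeR adjusted p 0.0262) but not without shScr replicate 2 (1.41, adjusted p 0.0670) or shPkm1 replicate 2 (0.96, adjusted p 0.276). Col6a5 had at most 4 counts and Col6a6 had 0 in every library.

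The promoters of Col6a1 and Col6a2 are shown because these neighbours, 85161 bases apart, rose together in shPkm1 and fell unequally in the shPkm2-labelled libraries. Each line gives the 250 bases before the RefSeq start (GRCm38.p6, minus strand, 5′ to 3′), chr10:76726045-76726294 and chr10:76623631-76623880, with capitals as above; RefSeq holds a further window for Col6a2, chr10:76623405-76623654, which is not printed.
Col6a1: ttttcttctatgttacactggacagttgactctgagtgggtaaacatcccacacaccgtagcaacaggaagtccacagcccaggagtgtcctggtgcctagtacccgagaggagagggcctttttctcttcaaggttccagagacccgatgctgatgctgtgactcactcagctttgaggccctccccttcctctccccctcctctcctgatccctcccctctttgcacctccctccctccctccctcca
Col6a2: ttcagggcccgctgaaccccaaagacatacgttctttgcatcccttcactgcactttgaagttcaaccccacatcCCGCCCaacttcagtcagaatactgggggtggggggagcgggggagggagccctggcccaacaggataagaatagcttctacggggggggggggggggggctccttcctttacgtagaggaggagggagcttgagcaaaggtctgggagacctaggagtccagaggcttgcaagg
The Col6a1 window held none of the 3 motifs and the Col6a2 window held GGGCGG, as its reverse complement CCGCCC, 175 bases before the start. The further Col6a2 window held the same motif 3 times, at 67, 15 and 11 bases before its start. RefSeq windows were found for 35 of the 44 members, 38 windows in all. Searched on both strands, CCAAT stood in 34.2% of collagen windows and 33.8% of all 32851 windows, TATAAA in 13.2% and 12.4%, and GGGCGG in 57.9% and 32.7%. A match is a string of letters and no measured binding site.

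Among fibril-associated collagens 4 of 9 genes were tested, of which 3 rose and 1 fell in shPkm1 (31.8% and 31.4% of all genes tested). Col12a1 (chr9:79598987-79721141), a long collagen that bridges fibrils in tendon and muscle fascia, had 24.9 and 33.8 TPM in shScr, 250 and 234 TPM in shPkm1, and 137 and 116 TPM in the shPkm2-labelled libraries. The groups did not overlap and both hairpin groups were above shScr. It was 6.30-fold higher in shPkm1 (log2 2.65, SE 0.128, edgeR adjusted p 2.81e-09) and 3.23-fold higher in the shPkm2-labelled libraries (log2 1.69, SE 0.124, edgeR adjusted p 5.99e-08). Col16a1 followed the same order, from 4.41 and 5.08 TPM in shScr to 15.3 and 12.6 TPM in the shPkm2-labelled libraries and 17.4 and 17.6 TPM in shPkm1. Its rises were 2.89-fold and 2.13-fold against shScr (edgeR adjusted p 2.56e-07 and 3.44e-06). The difference between the hairpin groups, -0.44 (edgeR adjusted p 0.00516), did not pass without shPkm1 replicate 2 (-0.37, adjusted p 0.0630) or shPkm2 replicate 2 (-0.32, adjusted p 0.0887).

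Col14a1, a fibril-associated collagen of developing tendon and skin, showed the largest rise of any tested collagen in shPkm1 by the TMM-scaled edgeR fit, close to Col11a1 (log2 4.99 and 4.76). The lowest values over the alternatives were 2.14 and 2.37, so their order was not the same in every fit. Col14a1 had 10 and 15 counts in shScr, 427 and 497 in shPkm1, and 20 and 22 in the shPkm2-labelled libraries, or 0.130 and 0.190 TPM, 6.72 and 7.02 TPM, and 0.280 and 0.310 TPM. Both shPkm1 libraries were far above the other 4. It was 31.8-fold higher in shPkm1 (log2 4.99, SE 0.212, edgeR adjusted p 8.12e-10), while the difference in the shPkm2-labelled libraries was 0.41 (SE 0.323, edgeR adjusted p 0.299). Col20a1 was the only member called lower in shPkm1, with 141 and 202 counts in shScr, 124 and 102 in shPkm1, and 100 and 95 in the shPkm2-labelled libraries. It fell by 0.80 in shPkm1 (edgeR adjusted p 0.00229) and by 1.14 in the shPkm2-labelled libraries (edgeR adjusted p 0.000132). With limma on log2(FPKM + 0.1) the first was -0.55 (adjusted p 0.0554). Col9a1, Col9a2 and Col9a3 of cartilage collagen IX, Col19a1 and Col22a1 were too low to test, and Col22a1, a collagen of the muscle and tendon junction, had at most 1 count. Col9a3 had 8 and 15 counts in shScr, 1 and 4 in shPkm1, and 1 and 2 in the shPkm2-labelled libraries. Set against the floor of 3 counts it was at least 4.76-fold lower in the latter than in shScr, without a test.

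Multiplexins carry anti-angiogenic fragments in their tails, endostatin in the case of Col18a1. Col18a1 had 29.2 and 53.9 TPM in shScr, 94.7 and 98.2 TPM in shPkm1, and 81.2 and 78.4 TPM in the shPkm2-labelled libraries. Both hairpin groups were above shScr, whose libraries were far apart. It rose 1.85-fold in shPkm1 (log2 0.88, SE 0.169, edgeR adjusted p 0.000521). The rise in the shPkm2-labelled libraries (0.51, edgeR adjusted p 0.0168) was lost without shScr replicate 1 (0.20, adjusted p 0.109), without shPkm2 replicate 1 (0.52, adjusted p 0.0511) and without shPkm2 replicate 2 (0.50, adjusted p 0.0588). Col15a1, the multiplexin of muscle basement membranes, had 25 and 17 counts in shScr, 81 and 72 in shPkm1, and 14 and 12 in the shPkm2-labelled libraries. It rose 3.14-fold in shPkm1 (edgeR adjusted p 0.000391). Its fall of 1.03 in the shPkm2-labelled libraries (edgeR adjusted p 0.0299) was lost without shScr replicate 1 (-0.64, adjusted p 0.245), shPkm2 replicate 1 (-1.13, adjusted p 0.0775) or shPkm2 replicate 2 (-0.93, adjusted p 0.127), and with library totals alone (-0.70, adjusted p 0.119).

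Of 3 short-chain collagens, all tested, 2 rose in both hairpin groups (31.8% and 33.9% of all genes tested). Col8a1, a collagen of vessel walls and the back of the cornea, had 11.1 and 18.5 TPM in shScr, 87.3 and 78.5 TPM in shPkm1, and 32.8 and 27.4 TPM in the shPkm2-labelled libraries. Col8a2, its partner, had 1.07 and 2.50 TPM, 9.27 and 9.57 TPM, and 4.37 and 4.12 TPM in that order. For both genes the groups did not overlap, and shPkm1 was highest. Col8a1 rose 4.32-fold in shPkm1 and 1.50-fold in the shPkm2-labelled libraries (edgeR adjusted p 9.74e-08 and 0.00330), and Col8a2 4.08-fold and 1.75-fold (edgeR adjusted p 4.44e-06 and 0.00717). Col10a1, the collagen of growth-plate cartilage, had 1 and 11 counts in shScr, 7 and 8 in shPkm1, and 11 and 12 in the shPkm2-labelled libraries. It did not pass a test with all libraries, and without shScr replicate 2 it was called higher in the shPkm2-labelled libraries (2.98, adjusted p 0.0122).

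Transmembrane and remaining collagens were all low, none above 2.06 TPM in any library. Col23a1 had 23 and 146 counts in shScr, 108 and 98 in shPkm1, and 4 and 3 in the shPkm2-labelled libraries. The latter pair was below all others, while the shScr libraries differed more from each other than from shPkm1. It fell by 4.84 on the log2 scale in the shPkm2-labelled libraries (SE 0.789, edgeR adjusted p 0.000112). Its size moved with the shScr library left out, at -5.58 without shScr replicate 1 and -3.08 without shScr replicate 2, and was -0.69 with limma on log2(FPKM + 1). In shPkm1 the difference was 0.12 and not called, but -0.63 (adjusted p 0.0115) without shScr replicate 1 and 1.87 (adjusted p 1.75e-06) without shScr replicate 2, so that 1 library set its sign. Col17a1, the hemidesmosome collagen of skin, had 8 and 6 counts in shScr, 14 and 13 in shPkm1, and 25 and 26 in the shPkm2-labelled libraries. It rose in the latter against shScr (1.51, edgeR adjusted p 0.00506), a call that DESeq2 did not make (adjusted p 0.0604). Col25a1 had 28 and 20 counts in shScr, 18 and 11 in shPkm1, and 13 and 15 in the shPkm2-labelled libraries. It fell by 1.11 in the shPkm2-labelled libraries (edgeR adjusted p 0.0251), a call lost without shScr replicate 1 (-0.76, adjusted p 0.160), shPkm2 replicate 1 (adjusted p 0.135) or shPkm2 replicate 2 (-1.22, adjusted p 0.0780). In shPkm1 Col25a1 differed by -0.93 (edgeR adjusted p 0.0571) and was called lower without shScr replicate 2 (-1.23, adjusted p 0.0150).

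Col7a1, which anchors skin to its basement membrane, had 44 and 43 counts in shScr, 43 and 56 in shPkm1, and 72 and 60 in the shPkm2-labelled libraries. It did not pass the TMM-scaled test, but with library totals alone it was called higher in the shPkm2-labelled libraries (0.59, adjusted p 0.0486). Col26a1, with 17 and 8 counts in shScr, 9 and 12 in shPkm1, and 6 and 10 in the shPkm2-labelled libraries, also did not pass and was called lower in those libraries without shScr replicate 2 (-1.49, adjusted p 0.0175). Col13a1 had at most 1 count and Col28a1 at most 6, and neither was tested.

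The table lists several transcripts for some genes, and their estimated shares are described here for 3 genes chosen after the values were seen, with no test. Col18a1 had its counts mainly on NM_009929.3. A second transcript, XM_006513174.3, took 0.977% and 0.306% of the gene's counts in shScr, 12.9% and 10.9% in shPkm1, and 0.579% and 0.809% in the shPkm2-labelled libraries. In counts that was 17.6 and 10.1, then 643 and 628, then 26.1 and 36.6, so this transcript was high in shPkm1 alone. For Col5a1, NM_015734.2 held 54.8% and 53.0% in shScr, 61.0% and 54.0% in shPkm1, and 33.9% and 33.7% in the shPkm2-labelled libraries, with XM_006497644.3 holding the rest. For Col6a2, XM_006513177.2 held 4.17% to 5.31% in shScr and shPkm1 and 13.1% and 12.2% in the shPkm2-labelled libraries. These shares are the authors' estimates from reads that the transcripts of a gene largely have in common.

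**Figure D4:**
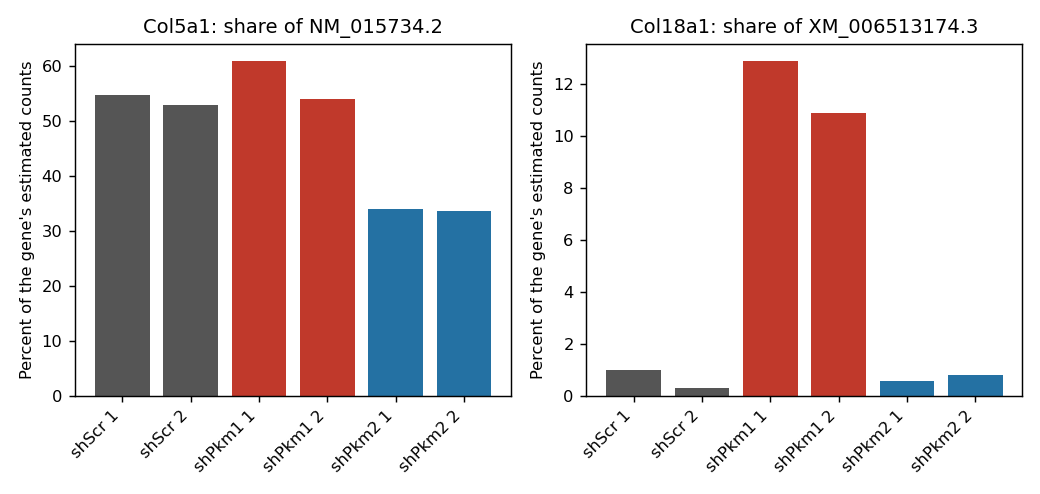
Share of a gene's estimated counts on NM_015734.2 of Col5a1 (left) and XM_006513174.3 of Col18a1 (right), in percent, with 1 bar per library. The Col5a1 transcript is lowest in the shPkm2-labelled libraries (33.9% and 33.7%), and the Col18a1 transcript is highest in shPkm1 (12.9% and 10.9%).

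Collagen chains need a set of enzymes and chaperones in the endoplasmic reticulum before export, then cleavage of their end pieces and crosslinking outside the cell. Of 38 genes of collagen synthesis 34 were tested (Colgalt2 and Mia2 were not analysed here), and 27 rose and 3 fell in shPkm1 (median 0.77), where 31.8% of all genes tested were called higher and 31.4% lower. In the shPkm2-labelled libraries 15 rose and 13 fell against shScr (median 0.21), where 33.9% and 34.2% of all genes were called. With library totals alone 20 rose and 6 fell, where 48.2% and 21.4% of all genes were called, so the balance turned with the scaling. Against shPkm1 4 rose and 28 fell (median -0.64), where 25.7% and 27.3% of all genes were called. The hydroxylases and their partners, which modify proline and lysine, rose in 11 of 13 cases in shPkm1 by modest amounts (median 0.41). The largest rise among them was that of P4ha3, a catalytic subunit of prolyl 4-hydroxylase, with 6.24 and 6.42 TPM in shScr, 40.3 and 35.2 TPM in shPkm1, and 24.4 and 22.1 TPM in the shPkm2-labelled libraries (log2 2.19 and 1.43 against shScr, edgeR adjusted p 7.07e-09 and 1.97e-07). Serpinh1, the collagen-specific chaperone, was 1.94-fold higher in shPkm1 (edgeR adjusted p 3.70e-05) and fell by 1.49 in the shPkm2-labelled libraries against shPkm1 (edgeR adjusted p 8.48e-07). Tmem38b, an ion channel of the endoplasmic reticulum, fell by 1.61 in shPkm1 and by 2.70 in the shPkm2-labelled libraries (edgeR adjusted p 9.40e-08 and 5.25e-10).

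Outside the cell, Adamts2, which removes the amino-terminal piece of procollagen I, followed Col1a1 in direction. It had 7.29 and 7.12 TPM in shScr, 42.4 and 42.5 TPM in shPkm1, and 4.87 and 4.16 TPM in the shPkm2-labelled libraries, with no overlap (log2 2.15 and -1.15 against shScr, edgeR adjusted p 5.56e-09 and 1.63e-06). Pcolce2, an enhancer of carboxy-terminal cleavage, rose in both hairpin groups (1.50 and 2.32, edgeR adjusted p 2.76e-07 and 1.58e-09) and was higher by 0.82 in the shPkm2-labelled libraries than in shPkm1 (adjusted p 2.15e-05). Lox, the founding crosslinking enzyme, had 32.2 and 36.5 TPM in shScr, 317 and 291 TPM in shPkm1, and 132 and 116 TPM in the shPkm2-labelled libraries. It rose 6.74-fold and 2.61-fold against shScr (edgeR adjusted p 3.80e-10 and 7.95e-08). Of its relatives Loxl1 rose by 1.10 in shPkm1 and fell by 1.06 in the shPkm2-labelled libraries (edgeR adjusted p 1.45e-06), Loxl4 rose by 1.46 there, and Loxl2 fell by 0.56 in shPkm1 (edgeR adjusted p 0.00187) and was higher by 1.57 in the shPkm2-labelled libraries than in shPkm1 (edgeR adjusted p 2.02e-07). The fall of Loxl2 in shPkm1 did not pass with limma on log2(FPKM + 1) (-0.28, adjusted p 0.0983). Adamts14 fell by 0.31 in shPkm1 (edgeR adjusted p 0.0186), which was lost without shPkm1 replicate 1 (-0.24, adjusted p 0.153), with library totals alone (-0.12, adjusted p 0.368) and with DESeq2 (adjusted p 0.0535).

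**Figure D5:**
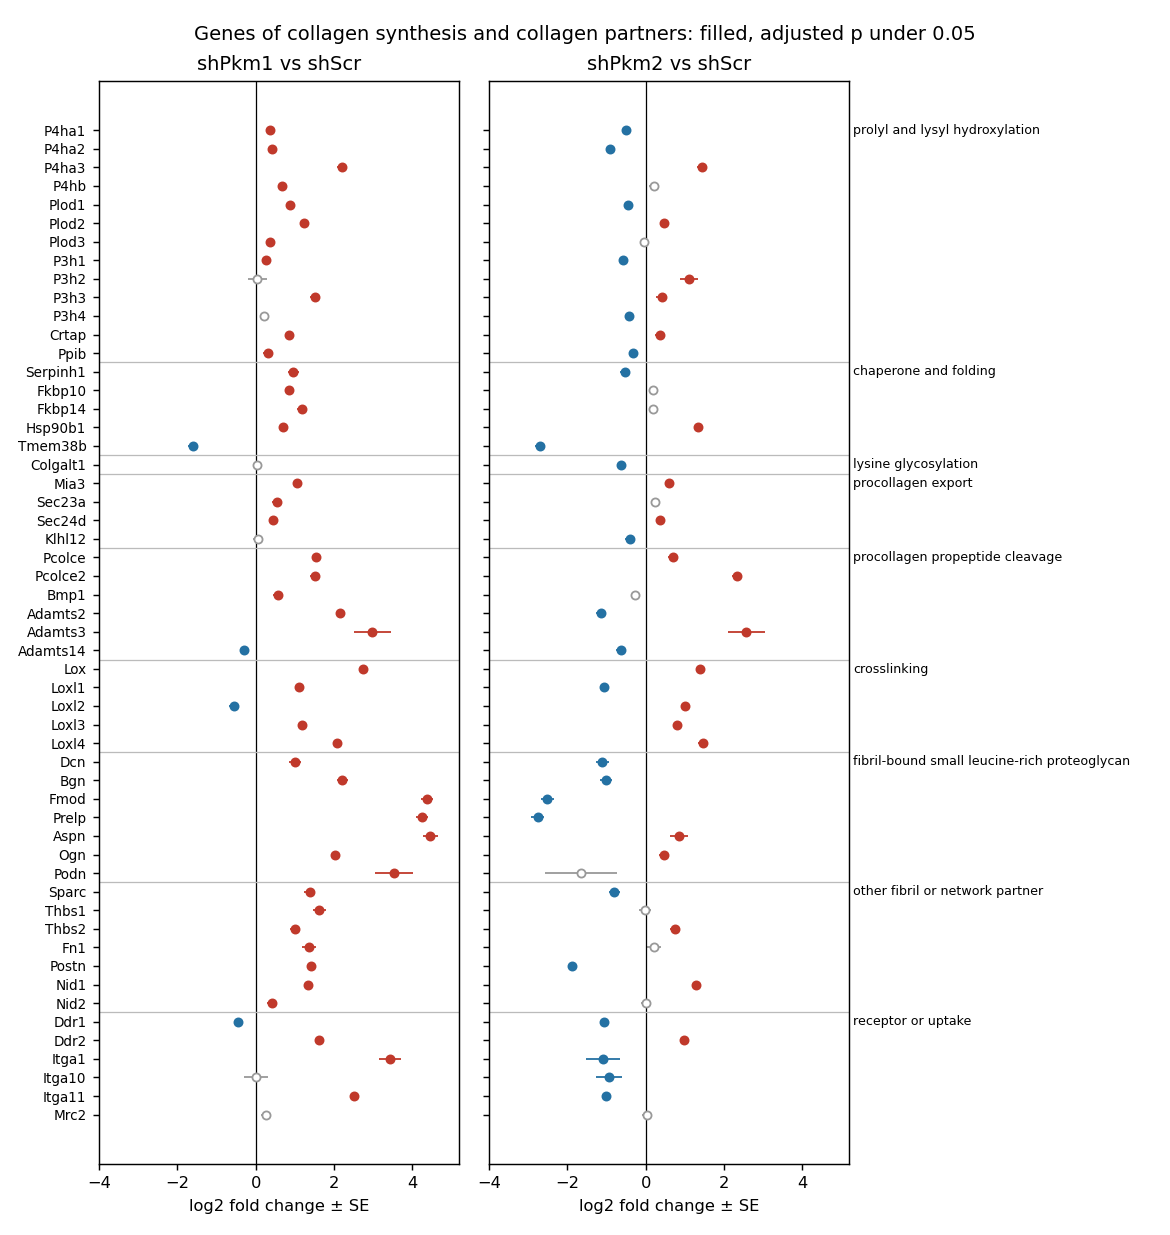
Log2 fold change ± SE of the tested genes of collagen synthesis and of collagen partners in shPkm1 (left) and the shPkm2-labelled libraries (right) against shScr, grouped by role, with filled points for an adjusted p under 0.05. Most points in the left panel lie above 0, with Fmod at 4.38 and Prelp at 4.25, and these 2 genes lie at -2.51 and -2.76 in the right panel.

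Genes of proteins that bind collagen outside the cell were also mostly higher in shPkm1. Of 24 collagen partners 20 were tested (Kera was not analysed here), and 17 rose and 1 fell in shPkm1 (median 1.51; 31.8% and 31.4% of all genes tested). For the shPkm2-labelled libraries, 5 rose and 10 fell against shScr (median -0.87), where 33.9% and 34.2% of all genes were called. With library totals alone 8 rose and 8 fell, where 48.2% and 21.4% of all genes were called. Against shPkm1 none rose and 17 fell (median -1.87; 25.7% and 27.3% of all genes). The small leucine-rich proteoglycans, which coat fibrils and set their spacing, rose in 7 of 7 tested cases in shPkm1 (median 3.53). Fmod, fibromodulin, had 19.7 and 16.2 TPM in shScr, 511 and 477 TPM in shPkm1, and 4.80 and 3.93 TPM in the shPkm2-labelled libraries. Prelp had 20.1 and 16.0 TPM, 464 and 440 TPM, and 3.53 and 3.79 TPM in that order. Both genes were highest in shPkm1 and lowest in the shPkm2-labelled libraries, with no overlap. Their rises were 20.8-fold and 19.0-fold in shPkm1 (log2 SE 0.149 and 0.156, edgeR adjusted p 9.87e-11 and 1.79e-10). Aspn, asporin, rose 22.0-fold in shPkm1 and 1.80-fold in the shPkm2-labelled libraries (edgeR adjusted p 6.89e-10 and 0.00419). Podn was at or under the floor of 3 counts in both shPkm2-labelled libraries, at least 19.8-fold below shPkm1.

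Postn, periostin, which binds collagen I, rose by 1.41 in shPkm1 and fell by 1.88 in the shPkm2-labelled libraries (edgeR adjusted p 2.39e-07 and 9.23e-09), while Nid1, a linker of basement membranes, rose in both (1.34 and 1.29, edgeR adjusted p 1.41e-07 and 9.36e-08). Of the receptors, Itga1, a chain of the integrin that binds collagen IV, had 9 and 15 counts in shScr, 151 and 149 in shPkm1, and 8 and 6 in the shPkm2-labelled libraries. It was high in shPkm1 only, and it fell by 4.53 in the shPkm2-labelled libraries against shPkm1 (edgeR adjusted p 4.94e-08). The discoidin receptor Ddr2, which reads fibrillar collagen, rose in both hairpin groups (1.61 and 0.97, edgeR adjusted p 4.51e-08 and 2.66e-06), and its relative Ddr1 fell in both (-0.45 and -1.07, edgeR adjusted p 0.00123 and 5.14e-07).

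Of 12 regulators of collagen genes 11 were tested: 5 rose and 3 fell in shPkm1, and 4 rose and 4 fell in the shPkm2-labelled libraries. These shares are near those over all genes tested, of which 63.1% and 68.0% were called in either direction, so the counts are no result about the list. With library totals alone 6 rose and 1 fell in shPkm1, where 40.5% and 21.0% of all genes did. In the shPkm2-labelled libraries 6 then rose and 4 fell, where 48.2% and 21.4% of all genes did. Creb3l1, a membrane-bound activator of Col1a1, had 106 and 139 TPM in shScr, 532 and 454 TPM in shPkm1, and 214 and 181 TPM in the shPkm2-labelled libraries. It rose by 1.62 in shPkm1 (edgeR adjusted p 1.05e-07), and 0.24 in the shPkm2-labelled libraries was not called (adjusted p 0.0777), but it was with library totals alone (0.56, adjusted p 0.00137), both limma fits (0.56 and 0.57) and without shScr replicate 2 (0.35, adjusted p 0.00702). Scx, scleraxis, a tendon factor that binds collagen I promoters, fell by 0.85 and 1.72 (edgeR adjusted p 3.37e-05 and 3.60e-08). Smad7, an inhibitor of TGF-beta signalling, and Runx2 rose in both groups, by 1.55 and 1.31 and by 1.26 and 1.27 (each edgeR adjusted p at most 1.38e-05). Of the ligands, Tgfb3 fell by 1.95 and the signal carrier Smad3 by 1.02 in the shPkm2-labelled libraries (edgeR adjusted p 3.59e-09 and 9.19e-07), where Tgfb2 fell by 1.88 against shPkm1 (adjusted p 2.67e-08). Sox9 rose by 0.81 in the shPkm2-labelled libraries (edgeR adjusted p 1.01e-05). Its fall of 0.31 in shPkm1 was lost without shPkm1 replicate 1 (-0.26, adjusted p 0.137) or 2 (-0.33, adjusted p 0.0643), and the fall of Ccn2 there (-0.25, edgeR adjusted p 0.0324) was lost without shScr replicate 2 (-0.22, adjusted p 0.0646), shPkm1 replicate 1 (-0.19, adjusted p 0.246) or shPkm1 replicate 2 (-0.31, adjusted p 0.0646).

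Markers of other matrix-making cells were read beside the collagens, and their part in the result was not tested. The summed level of 8 fibroblast markers was 338 and 380 TPM in shScr, 472 and 402 TPM in shPkm1, and 250 and 292 TPM in the shPkm2-labelled libraries. In shScr nearly all of this sum was Ly6a, a surface antigen of several stem and stromal cells, with 330 and 372 TPM in shScr, 325 and 275 TPM in shPkm1, and 223 and 266 TPM in the shPkm2-labelled libraries. Ly6a fell by 0.62 in shPkm1 and by 0.97 in the shPkm2-labelled libraries (edgeR adjusted p 0.000536 and 8.70e-06). Of the 5 fibroblast markers tested, the other 4 rose in shPkm1 and 2 rose and 2 fell in the shPkm2-labelled libraries, Ly6a included. Over all genes 31.8% rose in shPkm1, and 33.9% rose and 34.2% fell in the shPkm2-labelled libraries, near the shares of the fibroblast list there. Tcf21 had 0 counts in all libraries and Thy1 at most 1, while Cd34 went from 4.34 and 4.44 TPM in shScr to 125 and 106 TPM in shPkm1 and Dpt from 0.680 and 0.210 to 6.38 and 5.01 TPM. Among 6 tendon markers, which include Fmod, Tnmd and Thbs4 had at most 1 count, and the sum was 301 and 334 TPM, 772 and 769 TPM, and 211 and 192 TPM. Nearly all of its rise in shPkm1 was Fmod, at the levels given above. Egr1 went from 46.4 and 36.6 TPM in shScr to 91.1 and 86.0 TPM in shPkm1, and Scx from 233 and 280 TPM down to 167 and 203 TPM. The 8 cartilage markers, of which 2 were tested, summed to 13.3 and 15.5 TPM in shScr, 16.1 and 15.7 TPM in shPkm1, and 37.5 and 31.9 TPM in the shPkm2-labelled libraries, with Matn1, Chad and Snorc at 0 in all libraries. Nearly all of this sum was Sox9, with 13.0 and 15.3, 15.1 and 14.9, and 36.7 and 31.3 TPM in that order. The 9 bone markers summed to 214 and 281 TPM in shScr, 588 and 564 TPM in shPkm1, and 2932 and 2819 TPM in the shPkm2-labelled libraries. Most of this was Spp1, with 169 and 228, 558 and 539, and 2904 and 2793 TPM in that order, and Ibsp was at 0. Bglap2 fell in both hairpin groups (log2 -2.56 and -2.57, edgeR adjusted p 1.64e-07 and 6.76e-08). Of 6 bone markers tested, 2 rose and 1 fell in shPkm1 (31.8% and 31.4% of all genes). In the shPkm2-labelled libraries 3 rose and 1 fell (33.9% and 34.2%). Endothelial markers summed to at most 0.410 TPM and the 4 blood cell markers analysed to 3.33 and 6.56 TPM in shScr, 16.9 and 15.6 TPM in shPkm1, and 17.5 and 18.9 TPM in the shPkm2-labelled libraries. All 4 blood cell markers rose in shPkm1 (median 1.37; 31.8% of all genes), though DESeq2 did not call Cd68 (adjusted p 0.0948) or Csf1r (adjusted p 0.0599), and 2 rose and 1 fell in the shPkm2-labelled libraries (33.9% and 34.2% of all genes). Most of their sum was Cd14, with 49 and 89 counts in shScr, 182 and 202 in shPkm1, and 251 and 277 in the shPkm2-labelled libraries.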

How the data were processed

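RNA was sequenced in 6 C2C12 libraries, 2 per hairpin group. The deposited table gave, per the file headers, an estimated count, an FPKM and a TPM for each of 57920 RefSeq transcripts. The submitters' processing notes name HISAT, StringTie, Bowtie, RSEM, DESeq2 and mm10, without versions or strandedness. The authors' deposited estimated counts and TPM were summed per NCBI gene, and the counts were rounded. A further 9 columns of group means were not used.

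Genes were filtered with filterByExpr (minimum count 10, minimum total 15), scaled by TMM and fitted with edgeR 4.0.16 (R 4.3.3) with 1 coefficient per group over all 6 libraries. Two-sided quasi-likelihood tests were adjusted by Benjamini-Hochberg over 12643 genes, with a threshold of 0.05. Fold changes are of TMM-scaled counts, and levels between genes are in TPM. The test was checked on counts simulated with the same spread for all genes and libraries, so it does not cover an unequal spread between groups. In it 99% of true log2 differences of size 1, 58% of size 0.5 and 0.049% of size 0 were called. Alternatives used DESeq2 1.42.0, limma 3.58.1 on log2 of the FPKM deposited by the authors, other scalings and filters, a replicate block, and each library left out. Members with values in each library are, per class, the 4 (fibrillar) or 3 (other) most abundant and the 3 largest called rises and falls; others are named to account for every member. List genes are up to 3 called rises and falls per comparison with a mean of at least 50 counts. Podn and the single marker genes were named after their values were seen. The members and lists were chosen with earlier results of these data known. Counting error alone stands behind the floor of 3 counts. Gene bounds came from RefSeq GRCm38.p6, the same build as mm10.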

Additional observations from a re-analysis of the deposited data

How the results depend on the processing

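Of 24 members called in shPkm1 against shScr, 19 were called under every alternative that tested them, as were 11 of 19 in shPkm2 against shScr and 21 of 22 in shPkm2 against shPkm1. Col15a1, among the 19 and the 21, has a mean of 36.8 counts and was not tested with a mean of at least 50 counts. The 1 member called lower in shPkm1 became 2 without a filter and 0 with limma on log2(FPKM + 0.1), and 1 to 3 with a library left out. The 12 members lower in shPkm2 against shScr became 6 with library totals only, 6 with limma on log2(FPKM + 1) and 6 with limma on log2(FPKM + 0.1). DESeq2 did not call the rises of Col24a1 (adjusted p 0.0874) and Col6a4 (0.138) in shPkm1. In shPkm2 against shScr it did not call Col15a1 (adjusted p 0.0775), Col17a1 (0.0604), Col18a1 (0.124) or Col25a1 (0.119). No member higher in shPkm2 against shPkm1 became 1, Col17a1, with library totals only and 1 with only the 2 groups compared. Summed as CPM, the collagens gave 8601, 9782, 38391, 39033, 8246 and 7472 in library order, a unit that weights long genes more. The cause of the other changes was not tested.

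The labels do not say whether a replicate number marks a shared batch. Differences between libraries 1 and 2 correlated at -0.0256, 0.0418 and 0.0527 between groups, so no replicate effect common to the groups was seen across genes. With the replicate block 23 members were higher and 1 lower in shPkm1, 7 higher and 12 lower in shPkm2 against shScr, and 23 lower in shPkm2 against shPkm1, where Col18a1 was added.

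Signs turned only for differences that were not called by the TMM-scaled edgeR fit to all libraries, though some were called by other fits to them: Col1a2 in shPkm2 by DESeq2 (-0.26) and Col5a2 in shPkm2 with library totals (0.45). With library totals only and limma on log2(FPKM + 1) and log2(FPKM + 0.1), in this order, Col1a2 in shPkm2 against shScr was 0.07, 0.08 and 0.08, Col4a1 0.15, 0.15 and 0.15, Col4a2 0.13, 0.13 and 0.14, and in shPkm1 Col11a2 was 0.17, 0.03 and 0.08 and Col7a1 0.17, 0.04 and 0.14. Col11a2 in shPkm2 was 0.07 with library totals. With the 2 limma fits Col24a1 in shPkm2 was 0.02 and 0.04, and Col25a1 in shPkm2 against shPkm1 was 0.02 and 0.11. With a library left out, against shScr, Col10a1 ran from -0.67 to 2.50 in shPkm1 and from -0.19 to 2.98 in shPkm2, Col11a2 from -0.20 to 0.16, Col23a1 from -0.63 to 1.87, Col26a1 from -0.98 to 0.26 and Col7a1 from -0.18 to 0.13 in shPkm1, and Col5a2 from -0.07 to 0.37 in shPkm2. Col25a1 in shPkm2 against shPkm1 ran from -0.53 to 0.24.

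With 2 libraries per group the spread is poorly known, and the 2 libraries of shScr differed by a chi-square per degree of freedom of 31.6, those of shPkm1 by 6.08 and those of shPkm2 by 6.82. Transcript shares rest on estimates for overlapping models, and strand use is not given in the sources used here, so reads in the overlap of Col4a1 and Col4a2 cannot be told apart.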
